A study of Mus musculus with 14 samples.

Results

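The genes described here mark the 2 main neuron lineages of the cerebellar cortex, the granule cells and the Purkinje cells. The members were a fixed list of 10 symbols, and the rule kept those found in the deposited gene table. All 10 were found among the 17927 genes of the table. The granule lineage is represented by 5 of them (Atoh1, Barhl1, Zic2, Neurod1 and Cbln1) and the Purkinje lineage by the other 5 (Pcp2, Pcp4, Calb1, Rora and Skor2). They were measured by RNA-SEQ in whole brains of 7 WT and 7 Capn15 KO mice, untreated, at postnatal day 2 (P2), on a C57BL/6J background. Both groups held both sexes, with 2 females and 5 males among the WT and 4 females and 3 males among the Capn15 KO brains, from 6 litters called A to F. The methods name a lacZ-Neo allele and a FLOXed allele of Capn15 and do not state which of the lines gave these brains, and the labels put all 14 libraries in 1 batch. Litter B gave 4 brains, 2 of each genotype, and every other litter gave 1 brain of each genotype. Both WT brains of litter B were male and both Capn15 KO brains female. Litters A and E also held a male WT and a female Capn15 KO brain, litters C and D the reverse, and litter F only males. Pairs of the same replicate number outside litter F therefore compare a male with a female. Without litter F no pair of the same sex remains.

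Granule cells arise from the rhombic lip, gather as dividing precursors in an outer layer of the cerebellum, and later migrate inward. Purkinje cells arise from the ventricular zone of the cerebellum and send out its only cortical output. Purkinje cells release Sonic hedgehog, which keeps granule precursors dividing, and granule cell axons later form synapses on Purkinje cell dendrites. Around birth the outer layer is still expanding while Purkinje cells are extending dendrites. In a whole brain some of these genes also report on other regions. Calb1, Pcp4, Rora, Zic2, Neurod1 and Cbln1 are used in neurons of the forebrain, thalamus, midbrain or brainstem as well, whereas Atoh1, Barhl1, Pcp2 and Skor2 are more restricted.

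The table counts reads per gene, and the libraries held between 37620954 and 70910163 counts. Values are given as CPM, the counts of a gene per 1000000 counts of its library after scaling with TMM factors. Capn15 itself was at 18.7 to 27.3 CPM in the WT libraries and at 12.2 to 20.2 CPM in the Capn15 KO libraries (log2 fold change -0.81, standard error 0.118, FDR = 0.0747 by edgeR's quasi-likelihood test). The ranges overlapped only through litter F, in which WT replicate 7 by its label had 18.7 CPM and Capn15 KO replicate 7 by its label had 20.2 CPM, against the direction of every other litter, so the genotype and litter results of the members and lists are also given without this litter. The labels give neurons as the cell type of a brain sample. All 5 neuron markers were found, and so were at least 5 markers each of blood, microglia, endothelium, meninges, choroid plexus and the oligodendrocyte lineage at a mean of 1 CPM or more, so the libraries are read here as whole brain tissue. In such bulk tissue, fewer cells of a type and less RNA per cell cannot be told apart.

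Promoter sequences are shown for the genes in which the core motif of nuclear receptors was found, because Rora, a member, encodes a nuclear receptor. RefSeq promoter windows on GRCm38.p6 matched 6 of the 10 members (Atoh1, Barhl1, Neurod1, Pcp2, Pcp4 and Rora). Windows for Zic2, Cbln1, Calb1 and Skor2 were not analysed here. In the 250 bases before the start site, the letters AGGTCA, read on both strands, were found once each in Pcp2, Pcp4 and Barhl1, and in 14% of 32851 windows of this length across the genome. Capitals mark AGGTCA or its reverse complement, and in Barhl1 also the E-box letters CAGCTG, which 13.0% of windows hold. The windows lie at chr8:3625548-3625797 on the minus strand for Pcp2, chr16:96467356-96467605 on the plus strand for Pcp4, and chr2:28916669-28916918 on the minus strand for Barhl1, and are written 5′ to 3′ up to the base before the start.
Pcp2: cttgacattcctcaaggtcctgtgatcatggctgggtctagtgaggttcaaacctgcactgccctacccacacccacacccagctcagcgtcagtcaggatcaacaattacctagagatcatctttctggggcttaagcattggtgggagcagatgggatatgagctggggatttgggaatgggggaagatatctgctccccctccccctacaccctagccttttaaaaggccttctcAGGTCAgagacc
Pcp4: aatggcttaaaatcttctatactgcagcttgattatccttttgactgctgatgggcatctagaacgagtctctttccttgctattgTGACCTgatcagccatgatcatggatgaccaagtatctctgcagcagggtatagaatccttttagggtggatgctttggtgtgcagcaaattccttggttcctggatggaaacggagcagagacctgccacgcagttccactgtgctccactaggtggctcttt
Barhl1: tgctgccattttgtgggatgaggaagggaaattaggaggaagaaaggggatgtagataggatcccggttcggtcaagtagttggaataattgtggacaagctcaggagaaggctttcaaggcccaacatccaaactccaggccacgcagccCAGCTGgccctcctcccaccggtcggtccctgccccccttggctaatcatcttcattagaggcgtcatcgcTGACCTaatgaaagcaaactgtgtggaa
The receptor motif began 12 bases before the start site in Pcp2, 164 in Pcp4 and 28 in Barhl1, and the E-box letters began 99 bases before it. CAGCTG was found in none of the windows of Atoh1, Neurod1, Pcp2, Pcp4 and Rora, and the homeodomain letters TAATTA, which 4.84% of windows hold, were in none of the 6. Where RefSeq gives several start sites, the window of the most upstream start is shown, out of 4 for Pcp2 and 2 for Barhl1. The letters AGGTCA were in 3 of the 4 Pcp2 windows, some of which overlap, and in 1 of the 2 of Barhl1. A match is a description of letters in this window, and binding by the product of Rora was not tested.

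Levels between genes were compared per length, as CPM per 1000 bases of annotated exon. On this scale Pcp4 was highest, at 73.7 ± 8.29 (SD, n = 14 libraries), and Skor2 lowest, at 0.489 ± 0.077. Cbln1 was second at 22.7 ± 1.08. Calb1 at 14.6 ± 2.6, Zic2 at 12.9 ± 0.912 and Neurod1 at 12.6 ± 1.07 followed, and these neighbours overlapped from library to library. Rora at 4.52 ± 0.324 stood alone between them and Barhl1 at 2.85 ± 0.243. Barhl1 overlapped Pcp2, at 2.13 ± 0.431, and Atoh1, at 1.03 ± 0.175, lay below every library of Pcp2. The exon lengths join all annotated transcripts, from 1026 bases for Pcp4 to 13071 bases for Rora, so a gene read mainly from a short transcript is understated.

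The comparison of genotypes asks whether loss of Capn15 altered these lineages at P2. No difference was detected in any member. At an FDR under 0.05, 0 of the 10 members were called by edgeR's quasi-likelihood test with terms for litter and sex, 0 had an unadjusted p under 0.05, and the background over all 17927 genes was 0.00558% called and 5.14% with an unadjusted p under 0.05. DESeq2, edgeR's likelihood ratio test and limma-voom each called 0 of the 10 as well. The quasi-likelihood test did not call Capn15 itself either (FDR = 0.0747), so a missing call does not show that a difference is absent. The study, also using edgeR with litter and sex as variables, reported more genes at this threshold, among them Capn15 with a larger decrease than here. The reason for this difference was not tested. The fitted log2 fold changes of the members (Capn15 KO minus WT) lay between -0.097 and 0.019, 7 of them below 0 and 3 above, with a median of -0.021, while the median over all genes was 0.0015. WT and Capn15 KO levels overlapped in 10 of 10 members, and over all genes they failed to overlap in 0.00558%. Without litter F the log2 fold changes lay between -0.055 and 0.011, with 0 called.

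**Figure D1:**
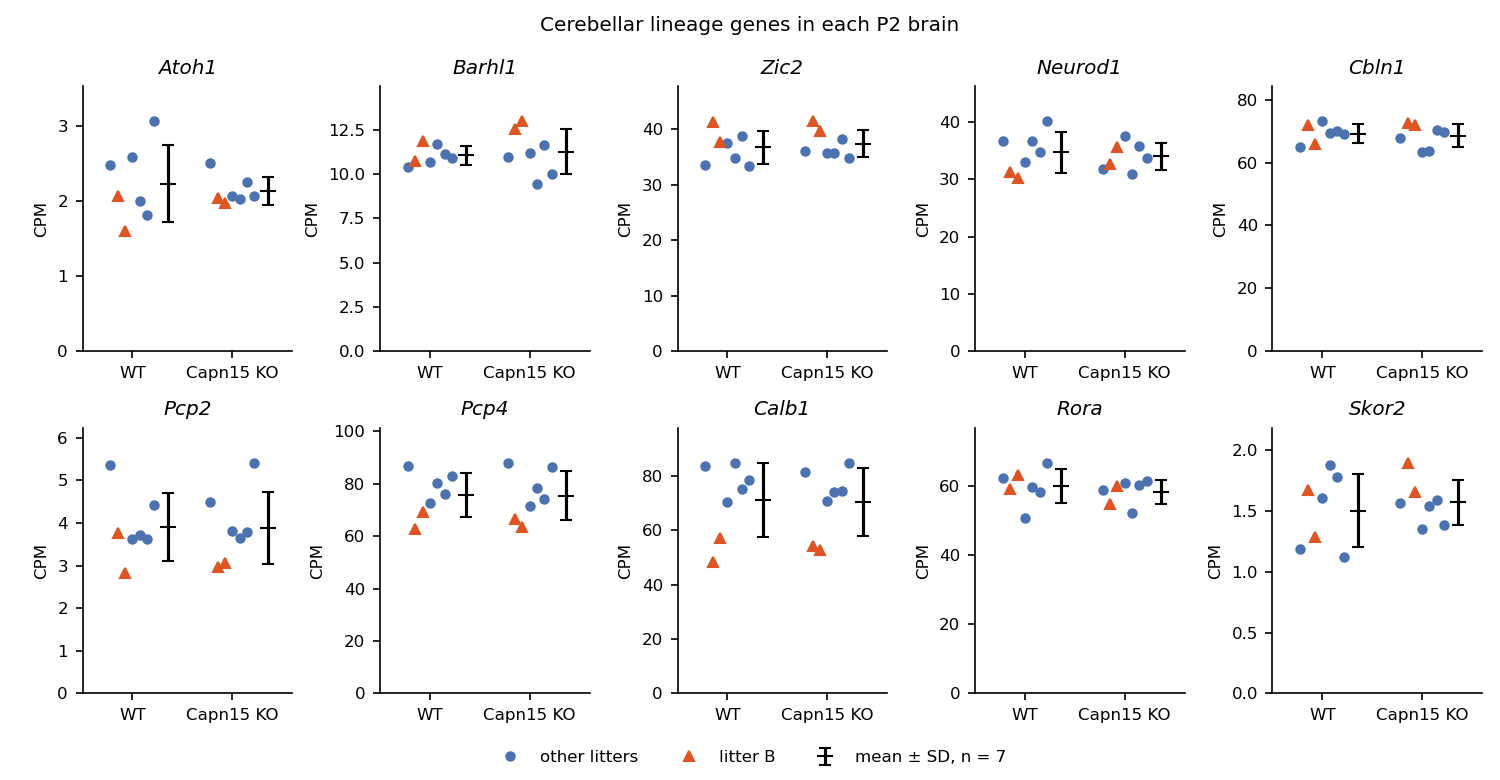
CPM of each member in each P2 brain, with 1 point per library, 7 WT and 7 Capn15 KO, on axes that begin at 0. Triangles mark the 4 brains of litter B, and bars give the mean ± SD (n = 7). WT and Capn15 KO points overlap in all 10 panels, and in the panels of Calb1 and Pcp4 the triangles lie below the other points.

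Among the granule lineage genes, Atoh1 (ENSMUSG00000073043, chromosome 6, 64729125 to 64731245, 1 exon) encodes the basic helix-loop-helix factor that specifies granule precursors. It was at 1.61 to 3.08 CPM in WT brains, with a median of 2.07, and at 1.97 to 2.51 CPM in Capn15 KO brains, with a median of 2.07. The highest and the lowest library were both WT, replicates 7 and 3, so the Capn15 KO range lay within the WT range. The log2 fold change was -0.097 (standard error 0.112, 95% interval -0.34 to 0.14, FDR = 1). In percent of the WT level, that interval reaches from -20.8% to 10.4%. Atoh1 rested on 65 to 176 counts per library. The 95% Wilson intervals of its lowest library (1.26 to 2.05 CPM) and of its highest (2.65 to 3.56 CPM) did not meet, and these intervals cover counting error only.

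Barhl1 (ENSMUSG00000026805, chromosome 2, 28907679 to 28916668, 3 exons) encodes a homeodomain factor of migrating granule precursors. It was at 10.4 to 11.9 CPM in WT brains (median 10.9) and at 9.46 to 13.0 CPM in Capn15 KO brains (median 11.2). Both extremes were Capn15 KO libraries, and the log2 fold change was -0.019 (standard error 0.0546, FDR = 1). Neurod1 (ENSMUSG00000034701, chromosome 2, 79452521 to 79456751, 2 exons) encodes a basic helix-loop-helix factor needed as granule cells differentiate. It was at 30.2 to 40.2 CPM in WT brains (median 34.7) and at 30.8 to 37.5 CPM in Capn15 KO brains (median 33.6). Capn15 KO exceeded WT in 4 of 7 pairs of the same replicate number, a pairing that is arbitrary within litter B. Cerkl overlaps it on the same strand and Gm26755 on the other, so reads in the shared part are uncertain.

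Zic2 (ENSMUSG00000061524, chromosome 14, 122475435 to 122479852, 3 exons) encodes a zinc finger factor of precursors in the dorsal neural tube and the cerebellum. It was at 33.3 to 41.2 CPM in WT brains (median 37.5) and at 34.9 to 41.5 CPM in Capn15 KO brains (median 36.1). The log2 fold change was 0.019 (95% interval -0.053 to 0.091, FDR = 1). Cbln1 (ENSMUSG00000031654, chromosome 8, 87468405 to 87472609, 3 exons) encodes cerebellin 1, which granule cells secrete and which organises their synapses on Purkinje cells. It was at 64.9 to 73.3 CPM in WT brains (median 69.4) and at 63.4 to 72.6 CPM in Capn15 KO brains (median 69.5). Cbln1 was the steadiest member, with a coefficient of variation of 4.75% over the 14 libraries, and had the smallest unadjusted p of the 10 (log2 fold change -0.044, standard error 0.0295, FDR = 1). Its 95% interval reached from -7.19% to 1.31%. Gm2694 overlaps Cbln1 on the other strand.

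**Figure D2:**
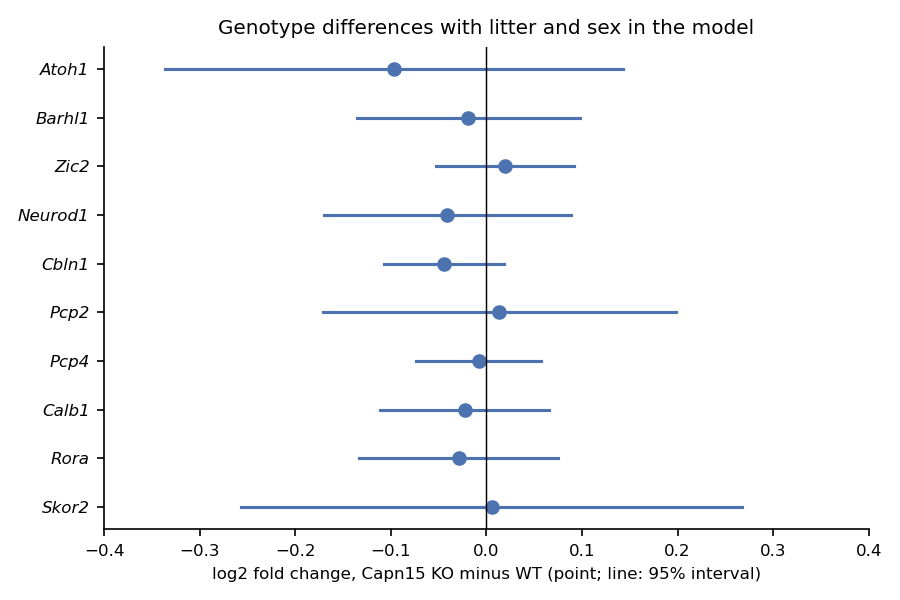
Fitted log2 fold change of each member, Capn15 KO minus WT, with its 95% interval from edgeR's quasi-likelihood fit over 14 libraries with terms for litter and sex. All 10 intervals include 0, and those of Atoh1 and Skor2, the genes with the fewest counts, are the widest.

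Among the Purkinje lineage genes, Skor2 (ENSMUSG00000091519, chromosome 18, 76856405 to 76900342, 9 exons) encodes a corepressor of differentiating Purkinje cells and is the most restricted of the 5. It was at 1.12 to 1.87 CPM in WT brains (median 1.61) and at 1.35 to 1.90 CPM in Capn15 KO brains (median 1.56). With 51 to 113 counts per library, counting alone gives a coefficient of variation of about 11.7% where 15.8% was measured. Its log2 fold change of 0.0055 had a 95% interval from -16.3% to 20.4%, and differences within that interval cannot be told from 0 here. Rora (ENSMUSG00000032238, chromosome 9, 68653786 to 69388246, 11 exons in its longest transcript) encodes the nuclear receptor without which Purkinje cells do not mature. It was at 50.7 to 66.7 CPM in WT brains (median 59.8) and at 52.2 to 61.5 CPM in Capn15 KO brains (median 59.8). Gm15511 overlaps it on the other strand. The log2 fold change of Rora was -0.029 (standard error 0.0485, FDR = 1).

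Calb1 (ENSMUSG00000028222, chromosome 4, 15881264 to 15908064, 11 exons) encodes calbindin, the calcium buffer that labels Purkinje cells from early on. It was at 48.4 to 84.8 CPM in WT brains (median 75.1) and at 52.8 to 84.8 CPM in Capn15 KO brains (median 74.0). Its coefficient of variation over the 14 libraries was 17.8%, and its log2 fold change for genotype was -0.023 with a standard error of 0.0411. Pcp4 (ENSMUSG00000090223, chromosome 16, 96467606 to 96525793, 3 exons) encodes a small peptide that binds calmodulin. It was at 62.6 to 86.7 CPM in WT brains (median 76.0) and at 63.5 to 88.1 CPM in Capn15 KO brains (median 74.0), and its interval for genotype reached from -4.97% to 4.06%. Igsf5 overlaps Pcp4 on the same strand. Pcp2 (ENSMUSG00000004630, chromosome 8, 3623371 to 3625545, 2 exons) encodes a regulator of G protein signalling. It was at 2.82 to 5.36 CPM in WT brains (median 3.72) and at 2.97 to 5.42 CPM in Capn15 KO brains (median 3.79). Pet100 overlaps it on the other strand.

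Litter, a variable that the study put in its model, was where the members differed. The joint test of the litter terms called 4 of the 10 members, against 29.6% of all genes and 34.0% of the 15227 genes with a mean of at least 1 CPM, so the share among the members is near the background. The 4 were Calb1 (FDR = 4.18e-05), Pcp4 (FDR = 0.000175), Pcp2 (FDR = 0.0149) and Zic2 (FDR = 0.021). For the other 6 the FDR lay between 0.195 (Atoh1) and 0.593 (Skor2).

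In litter B, Calb1 was at 48.4, 56.9, 54.1 and 52.8 CPM in WT replicates 2 and 3 and Capn15 KO replicates 2 and 3. In the other 10 libraries it was at 70.2 to 84.8 CPM, so that every brain of litter B lay below every other brain, whatever its genotype. Its mean in litter B was 68.2% of the mean elsewhere (53.0 ± 3.57 CPM, n = 4, against 77.7 ± 5.63 CPM, n = 10). Pcp4 was at 62.6 to 69.3 CPM in litter B and at 71.6 to 88.1 CPM elsewhere, also without overlap. Over all genes, litter B lay below the other 10 libraries in 9.77% and above them in 7.45%.

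Pcp2 was at 2.82 to 3.77 CPM in litter B and at 3.63 to 5.42 CPM elsewhere, 75.2% of the mean elsewhere, with some overlap. Its highest values were in litters A and F, whose means were 4.93 and 4.92 CPM. Zic2 went the other way, at 37.7 to 41.5 CPM in litter B and 33.3 to 38.7 CPM elsewhere. Of the 4 members called, the 3 lower in litter B belong to the Purkinje lineage and the 1 higher to the granule lineage. Rora did not share this pattern, at 59.1 ± 3.44 CPM in litter B and 59.1 ± 4.68 CPM elsewhere, and Skor2 was at 1.63 ± 0.253 and 1.5 ± 0.241 CPM (SD, n = 4 and 10). The granule members that were not called went both ways. Atoh1 had a lower mean in litter B (1.925 against 2.29 CPM), and so had Neurod1 (32.38 against 35.08 CPM). Barhl1 and Cbln1 had higher means there, and all of these overlapped with the other litters.

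**Figure D3:**
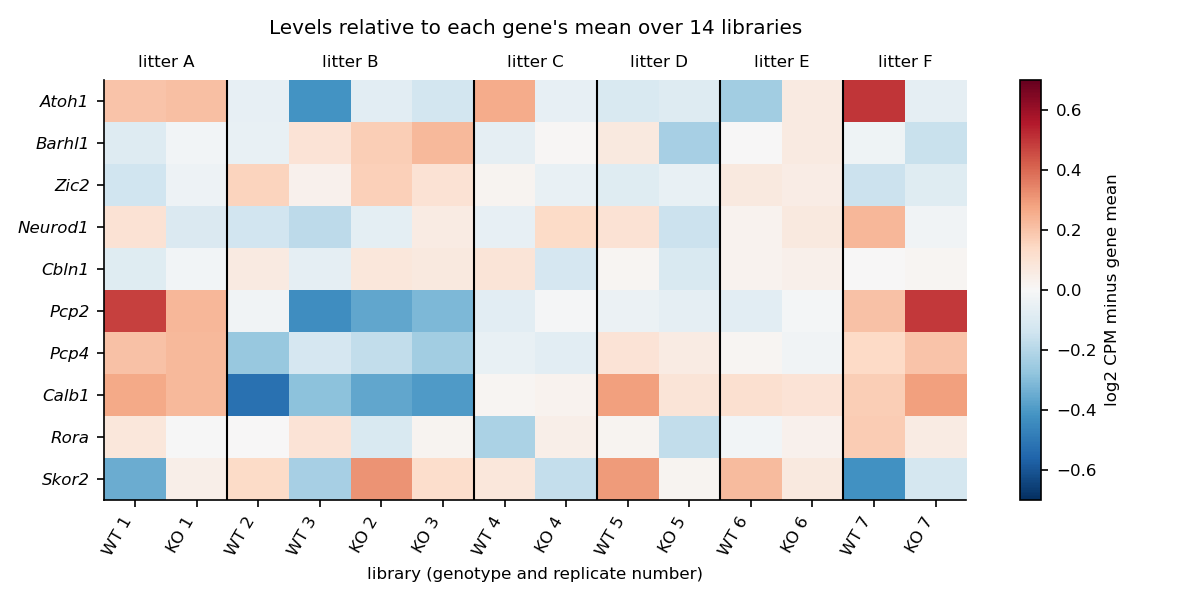
Log2 CPM of each member minus its mean over the 14 libraries, with libraries in columns ordered by litter and genes in rows. Blue is below and red above the gene's mean, and the 4 columns of litter B are blue in the rows of Calb1, Pcp4 and Pcp2.

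Without litter F the litter test called the same 4 members. Leaving out the 4 libraries of litter B was a setting chosen after these levels were seen. Without them, 0 of the 10 members passed edgeR's quasi-likelihood test for litter (Pcp4 FDR = 0.0621, Pcp2 0.213, Calb1 0.24 and Zic2 0.427). Of these Pcp4, Pcp2 and Calb1 had an unadjusted p under 0.05, and the share over all genes fell to 1.09%. That fit has 10 libraries and fewer litters, so a call lost there does not show that litter B alone gave it. Only litters F and B were left out whole. DESeq2 over all 14 libraries called the same 4 members. When single libraries were left out, Pcp2 lost its call without WT replicate 1 (FDR = 0.0576). Zic2 lost it without WT replicate 1 (FDR = 0.0552), WT replicate 2 (FDR = 0.0664) or Capn15 KO replicate 2 (FDR = 0.055), and Rora gained one without Capn15 KO replicate 4 (FDR = 0.0207). Litter and anything done litter by litter cannot be told apart here.

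Markers of some other regions and cell types also differed between litter B and the rest. The summed level of 5 midbrain markers was 35.5 to 40.8 CPM in litter B and 27.1 to 34.0 CPM elsewhere. That of 5 markers of the oligodendrocyte lineage was 281 to 308 CPM in litter B and 328 to 455 CPM elsewhere, and that of 5 microglia markers was 62.0 to 73.7 against 77.9 to 91.1 CPM, so that these 3 sums did not overlap. The 9 caudal hindbrain markers were at 45.3 to 51.6 CPM in litter B and 17.0 to 46.9 CPM elsewhere, and the 6 blood markers at 197 to 323 against 31.1 to 200 CPM. The 10 forebrain markers (286 to 310 against 223 to 302 CPM) and the 5 neuron markers (6656 to 6786 against 6500 to 6852 CPM) overlapped between litter B and the rest. So did the choroid plexus (740 to 913 against 607 to 975 CPM), meninges (277 to 347 against 225.5 to 309 CPM) and endothelium markers (181 to 208 against 191 to 238 CPM). Otx2 is in both the midbrain and the choroid plexus sums. The part of any of these in the levels of Calb1, Pcp4, Pcp2 and Zic2 was not tested.

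Sex was tested in the same fit. Of the 10 members, 0 passed an FDR of 0.05, against 0.0669% of all genes. Cbln1 and Barhl1 had an unadjusted p under 0.05, 2 of 10 where 5.04% of all genes did. Cbln1 was at 67.9 to 73.3 CPM in the 6 females and at 63.4 to 71.8 CPM in the 8 males, a log2 difference of -0.11 in males (FDR = 0.927). Barhl1 was at 10.7 to 13.0 CPM in females and 9.46 to 11.9 CPM in males, a log2 difference of -0.13 (FDR = 0.927). Both ranges overlapped between the sexes.

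Calb1 and Pcp4 also tended to vary together among the brains outside litter B, though not past adjustment for the number of pairs. Over those 10 libraries, with genotype means removed, Pearson's r between them was 0.88 (permutation test, p = 0.00184) and Spearman's rho 0.83 (permutation test, p = 0.00431), and r was 0.869 without the 2 libraries farthest from the median of Pcp4. Pcp2 and Pcp4 had an r of 0.818 (permutation test, p = 0.00428) and a rho of 0.685 (p = 0.034), or an r of 0.778 without the 2 farthest by Pcp2. After adjustment over the 45 pairs of members none of these passed 0.05, with adjusted p of 0.0828 for the r of Calb1 and Pcp4 and 0.0963 for that of Pcp2 and Pcp4. After litter and sex were also removed, over all 14 libraries, r was 0.817 for Calb1 and Pcp4 and -0.478 for Pcp2 and Pcp4. Removing so many terms from 14 libraries leaves little free variation, and these values were not tested. Other pairs then also had large values, such as 0.9 for Zic2 and Cbln1 and -0.845 for Atoh1 and Calb1. Whether either relation holds within litters is therefore not settled. The libraries come in litter pairs, and the permutations take them as independent.

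For Atoh1 and Skor2, the genes most like each were sought among 15227 genes by Pearson's r of log2 CPM over 14 libraries with genotype means removed. Those nearest to Atoh1 were Chrna5 (r = 0.861), Cthrc1 (0.809), Fam114a1 (0.802), Smim11 (0.797) and Calcrl (0.792). Among the 5 nearest to Skor2 were Gpn1 (r = 0.875), Slc18a3 (0.854), Lca5l (0.848) and Rasip1 (0.833). No member was among either 5. These are the highest of many correlations on 14 points.

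Related genes were read from 4 lists, and in none of the 4 did edgeR's quasi-likelihood test call a gene for genotype, with or without litter F. Across the lists 1, 4, 1 and 2 genes had an unadjusted p under 0.05, in the order given here, and without litter F 1, 2, 1 and 1. Of 19 further granule lineage genes in the table, 9 were lower and 10 higher in Capn15 KO, with a median log2 fold change of 0.0048, and an unadjusted p under 0.05 was found for 1. This was Sema6a, which encodes a semaphorin used in granule cell migration, at 62.9 ± 6.51 CPM in WT and 66.5 ± 3.25 CPM in Capn15 KO (SD, n = 7 each, FDR = 0.911). Mfap4 (log2 fold change -0.14, FDR = 0.971) and Eomes (0.19, FDR = 1) were next. Gabra6, which marks mature granule cells, was listed and is not a row of the table used here.

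Of 26 further Purkinje lineage genes, 17 were lower and 9 higher in Capn15 KO, with a median log2 fold change of -0.036, and 4 had an unadjusted p under 0.05. Lhx5, a LIM homeodomain factor of early Purkinje cells, was at 8.47 ± 1.48 CPM in WT and 7.57 ± 1.36 CPM in Capn15 KO (SD, n = 7 each), with the Capn15 KO library the higher in 1 of 7 pairs (log2 fold change -0.18, FDR = 0.784). Dab1, which carries the reelin signal that positions Purkinje cells, had a log2 fold change of 0.084 (FDR = 0.812), and Ebf1 one of -0.097 (FDR = 0.865).

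Of the 15 genes of the Sonic hedgehog pathway, 5 were lower and 10 higher, with a median of 0.025. Cdon, a hedgehog coreceptor, had a log2 fold change of 0.099 (FDR = 0.969), Smo, the signal transducer, one of -0.056 (FDR = 1), and Gli3, a transcription factor of the pathway, one of 0.1 (FDR = 1). Of 19 relatives and partners of the members, 13 were lower and 6 higher, with a median of -0.010. Cbln2, a cerebellin like Cbln1, was at 95.1 ± 5.59 and 90.6 ± 5.5 CPM (SD, n = 7 each, log2 fold change -0.088, FDR = 0.746). Nrxn3, a neurexin, had a log2 fold change of 0.12 (FDR = 0.935) and Neurog2 one of -0.24 (FDR = 1).

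**Figure D4:**
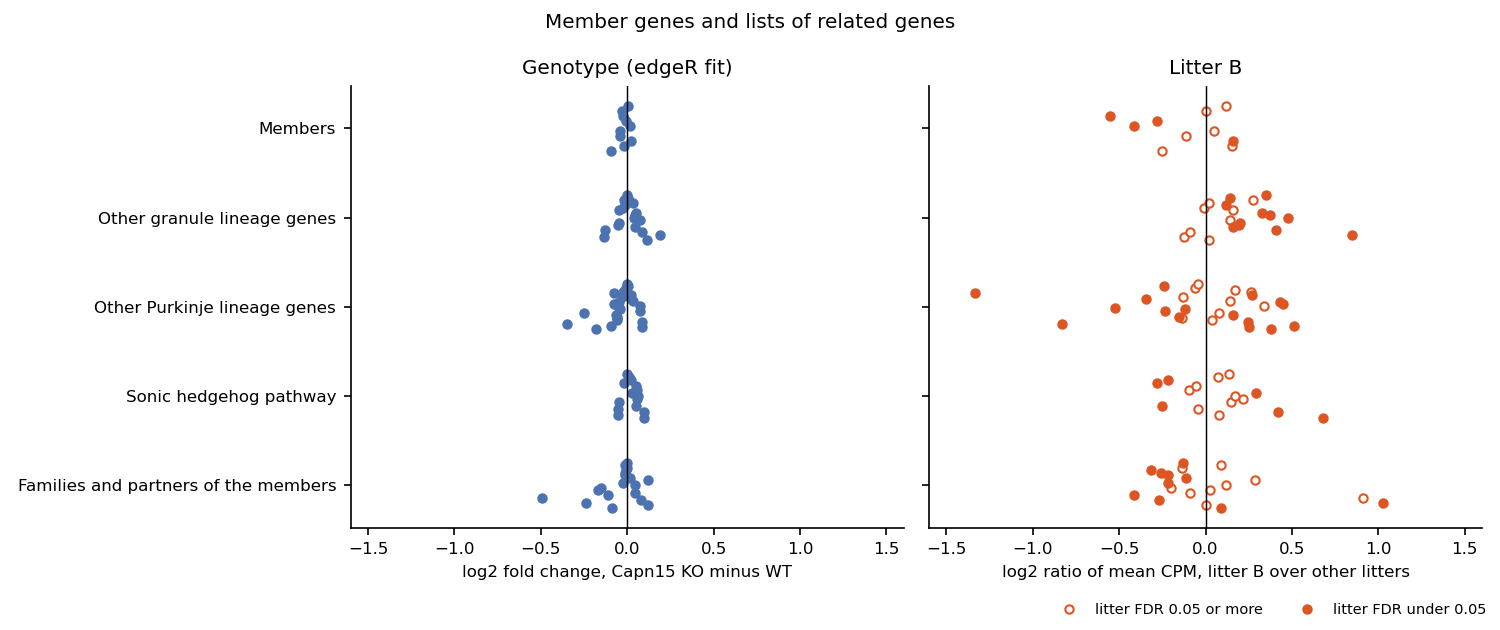
Each point is a gene, by list, with the fitted log2 fold change for genotype on the left and the log2 ratio of mean CPM in litter B over the other litters on the right, where filled points passed the litter test. On the left the points lie between -0.4925 (Atoh7) and 0.189 (Eomes). On the right they spread further, with filled points of the granule list all to the right of 0.

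The same lists varied with litter, and the shares called below stand beside 29.6% of all genes and 34.0% of genes with a mean of at least 1 CPM. The litter test called 11 of the 19 granule lineage genes (57.9%), and all 11 had a higher mean in litter B, among them Eomes, a factor of unipolar brush cells and of forebrain precursors, at 18.9 ± 2.14 against 10.5 ± 3.26 CPM (FDR = 9.73e-05), and Cntn2, a contactin of young granule cells, at 276 ± 18.6 against 198.4 ± 26.7 CPM (SD, n = 4 and 10, FDR = 1.29e-05). Zic1, the relative of Zic2, was also higher, at 203.7 ± 11.4 against 178.3 ± 14.5 CPM (FDR = 0.00605).

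Of the 26 Purkinje lineage genes 16 were called (61.5%, against 29.6% of all genes), 8 lower and 8 higher in litter B. Car8, a binding partner of the inositol trisphosphate receptor, was at 49.8 ± 3 against 71.8 ± 6.7 CPM (FDR = 2.79e-05), and Itpr1, that receptor, at 130.6 ± 6.45 against 165.6 ± 10.3 CPM (FDR = 0.000658). Pvalb and Cacna1g were lower too. Plcb3, Inpp5a and Ptf1a, the last a basic helix-loop-helix factor of Purkinje precursors, were also among the lower genes. Ptf1a rested on few counts, at 0.173 ± 0.0372 against 0.435 ± 0.143 CPM (FDR = 0.0364). Ebf1 (51.9 ± 2.48 against 36.4 ± 4.23 CPM, FDR = 2.38e-05), Ebf2, Lhx5, Skor1, Foxp2, Foxp4, Dab1 and Homer3 were higher.

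In the Sonic hedgehog pathway 6 of 15 were called (40.0%), 3 lower (Ccnd1, Boc and Hhip) and 3 higher (Mycn, Gli3 and Cdon) in litter B. Among the relatives and partners it was 10 of 19 (52.6%), 8 lower and 2 higher. Neurog2, a proneural factor of the forebrain, was at 4.64 ± 0.999 against 2.28 ± 0.467 CPM (FDR = 0.000633). Over all genes 5301 were called, 2883 lower and 2418 higher in litter B on average. Without litter B, the litter test called 1 gene each of the granule list and of the relatives and partners and 0 of the other lists, where 1.09% of all genes were called, and without litter F it called 12, 16, 7 and 10 genes of the 4 lists in the order above. The genes named from these lists for litter were chosen after their values were seen, and most are also used outside the cerebellum.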

How the data were processed

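RNA-SEQ counts of 14 whole P2 brains, 7 WT and 7 Capn15 KO, were used. The authors trimmed reads with Trimmomatic, aligned them to GRCm38 with STAR and counted them per gene with HTSeq-count, while the processing notes in the labels name featureCounts. They deposited these counts without normalization, and the strand setting, the annotation release and the gene filter are not given in the sources used here. A second deposited table pairs identifiers with symbols. Positions and exons came from GENCODE M21 on GRCm38.

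Genotype and replicate number came from the labels, and litter (a letter) and sex from the column names. All genes with at least 1 count were fitted in R 4.3.3 with edgeR 4.0.16 (quasi-likelihood, TMM factors, litter, sex and genotype, Benjamini-Hochberg FDR under 0.05), with DESeq2 1.42.0 and limma 3.58.1 as alternatives. The test was checked on simulated data. Log2 CPM used a prior count of 2. Correlations used 100000 two-sided permutations in Python 3.11.15 with numpy 2.4.6 and scipy 1.17.1. Figures used matplotlib 3.10.9. The libraries held between 37620954 and 70910163 counts, and 3 counts, the least taken as detected, correspond to 0.0423 to 0.08 CPM.

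Same-numbered WT and Capn15 KO libraries share a litter by their column names. Their deviations from the genotype means correlated, over 15227 genes, from -0.467 to 0.443 across the 7 pairs. The members and lists were chosen with earlier results of these data known. Named genes are the members, Capn15, the 3 genes of each list with the smallest p for genotype, and the 5 genes most like Atoh1 and Skor2. Genes named for litter, and relatives of those, were named after their values were seen. Some genes of these lists are not reported here. The labels give separate brains, and p-values measure the spread between them.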

Additional observations from a re-analysis of the deposited data

How the results depend on the processing

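The genotype test was repeated under 23 planned settings and 1 (without litter B) added after the data were seen. No member was called for genotype in any, the smallest FDR being 0.49, and of 240 refitted log2 fold changes the lowest was -0.21 and the highest 0.067. Over all genes edgeR's quasi-likelihood test called 1 gene, 0 with total counts only (883 with an unadjusted p under 0.05), 0 with the replicate block in place of litter (811), 0 without litter B (1333) and 7 without litter F, while DESeq2 called 17 and the likelihood ratio test 34. Leaving out single libraries gave 0 to 7. The block changed no member's call. For sex the count was 12, with 19 by DESeq2, 36 by the likelihood ratio test and 11 to 16 with single libraries left out. For litter it was 5301, with 196 without litter B and 3626 to 5770 with single libraries left out. Of the members 4 were called for litter, 0 without litter B and 2 to 5 with single libraries left out, the fewest without WT replicate 1.

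The sign of small genotype differences was not settled. Barhl1 turned to 0.025 with genotype alone and to 0.0013 without litter F, Pcp2 to -0.014 and -0.045 under the same settings, and Skor2 to -0.0041 with limma-voom, -0.046 without litter F and -0.017 without litter B, and the cause was not tested. With single libraries left out Atoh1 lay from -0.21 to -0.0029, Zic2 from 0.0036 to 0.043, Cbln1 from -0.058 to -0.022, Barhl1 from -0.0997 to 0.043, Neurod1 from -0.15 to 0.022, Pcp2 from -0.048 to 0.061, Pcp4 from -0.024 to 0.0051, Calb1 from -0.052 to 0.030, Rora from -0.12 to 0.050 and Skor2 from -0.049 to 0.067. Counting error limits Skor2, Atoh1 and Pcp2 most.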

Other observations

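By Dixon's criterion, 0 of 20 sets of 7 libraries, 1 for each member and genotype, held a library that stood apart, where chance gives about 1.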
